A study of Mus musculus with 2 samples.

Results

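The Hox genes of the mouse were examined for accessible chromatin in thymus. They are the protein-coding genes of the GENCODE annotation whose symbols read Hoxa, Hoxb, Hoxc or Hoxd followed by a number, and 39 of the 21755 protein-coding genes on chromosomes 1 to 19 and X met that rule. The Hoxa cluster on chromosome 6 holds 11 of them, the Hoxb cluster on chromosome 11 holds 10, and the Hoxc cluster on chromosome 15 and the Hoxd cluster on chromosome 2 hold 9 each. Their start sites and the 4 clusters with 50 kb on either side were read in every deposited list.

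DNase-seq, which maps where the nuclease DNase I cuts open chromatin, had been run on the thymus of 2 female B6CASTF1/J mice aged 36 days, first-generation hybrids of a C57BL/6J and a CAST/EiJ parent. The labels number the animals separately and call them biological replicates, 1 library each; mouse 1 and mouse 2 below keep those replicate numbers. Both carry the same donor record in the labels, and they were treated as separate mice because of their animal numbers. No treatment, genotype or control group was included, so values are given for each mouse and no test between conditions exists. Whole tissue was used, and a site open in few cells cannot be told apart from one that is weakly open in many.

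Hox genes encode homeodomain transcription factors that set the identity of body segments along the head-to-tail axis of the embryo. Each cluster is laid out in the order in which its genes are used, with its lowest-numbered paralogue group at one end and group 13 at the other. Outside the embryo, Polycomb complexes keep most Hox genes silent, the zinc finger protein CTCF binds between stretches of active and silent Hox genes, and MLL-menin complexes keep some Hoxa genes active in blood stem and progenitor cells. Hoxa3 is needed to form the thymus, and Hoxa7, Hoxa9 and Hoxa10 are known from early blood progenitors and from leukaemia.

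Most Hox promoters were closed in thymus. A promoter was the 1000 bp on either side of any annotated start of the gene, and it was counted as open when the shorter peak list of a mouse had a peak there. In both mice 10 of the 39 Hox genes, or 25.6%, had an open promoter, against 56.6% of all protein-coding genes. In mouse 1 the share was 25.6% of Hox genes against 56.9% of all genes, and in mouse 2 it was 30.8% against 63.2%. The longer lists gave 28.2% of Hox genes against 60.9% of all genes in both mice. A run of bases with significant cutting, whether or not a peak was listed, was found at a start of 28.2% of Hox genes and of 61.9% of all genes. In each mouse the Hox share was below that of all genes by more than the shares differed between the mice.

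Hox promoters are not poor in the bases that usually mark open promoters. Their median GC content was 55.5%, against 51.3% over all genes, and their median ratio of observed to expected CpG was 0.591, against 0.478. For Hox genes and all genes alike, GC and CpG were measured around the most upstream start alone, whereas a gene could be open at any start. With GC of at least 55% and a CpG ratio of at least 0.65 as the mark of a CpG-rich promoter, 12 Hox genes were CpG-rich. Of these 3 were open in both mice, or 25%, against 85.7% of the 3724 CpG-rich promoters of all genes.

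**Figure D1:**
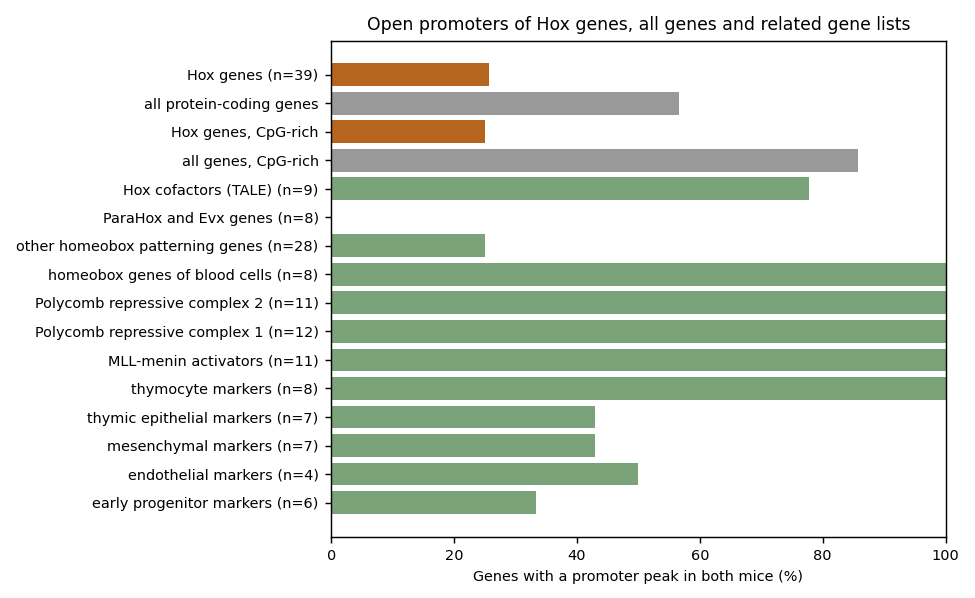
Share of genes with a promoter peak in both mice (percent, horizontal axis) for the Hox genes, all protein-coding genes, the CpG-rich promoters of each, and 12 related gene lists with their number of genes. The Hox bars stand at 25.6% and 25%, against 56.6% and 85.7% for all genes and for all CpG-rich promoters.

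Matches to the CTCF motif, defined below, are shown here because 10 of the 21 sites that both mice opened in the Hox windows hold one. Of the peaks outside the windows, 22.2% in mouse 1 and 27.7% in mouse 2 hold one. Of the 10 matches 3 lie at a Hox start and the others elsewhere, and no factor binding was measured. Each line gives 30 bases of GRCm38 with the 20 matched bases in capitals, in the direction of the motif, and the lines run from the Hoxa to the Hoxd cluster.
Hoxa7 start, chr6:52221800-52221829, minus strand: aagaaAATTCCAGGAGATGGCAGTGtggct
Near the Hoxa10 start, chr6:52240532-52240561, minus strand: tcgcaGCCGCCACGAGATGGCGCACtcccg
Hoxa11 to Hoxa13, chr6:52257112-52257141, plus strand: agcttGTCAACACGAGGTGGCGCCCttgat
Beyond Hoxa13, chr6:52306043-52306072, plus strand: tggcgATCGGCAGTGGGGGGCGCACcaaga
Hoxb13 to Hoxb9, chr11:96235097-96235126, minus strand: ctctcGCGGCCGGCAGGGGTCACTGtgtgg
Hoxb9 to Hoxb8, chr11:96278939-96278968, plus strand: gcacaGTGGCCGCTAGATGGCATCCttgct
Hoxb6 intron, chr11:96294689-96294718, minus strand: cccgaACGGACGGTAGATGGCAGCAaactg
Near the Hoxb5 start, chr11:96303236-96303265, plus strand: cgtcaATCGCCGGGAGGTGGCGCGCtctgc
Hoxc9 to Hoxc8, chr15:102987584-102987613, plus strand: aacaaGTGAACGCGAGGTGGCGCTGttgct
Hoxd3os1 exon, chr2:74715912-74715941, plus strand: gagctTTGTCCAGGAGGAGGCGCTGtagga

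A pair of group 13 promoters is shown because they are alike in composition and differ in what was cut. These are the 250 bases before the RefSeq start (GRCm38.p6), with every match to the SP and KLF factor motif GGGCGGG on either strand in capitals.
Hoxa13, chr6:52260881-52261130, minus strand: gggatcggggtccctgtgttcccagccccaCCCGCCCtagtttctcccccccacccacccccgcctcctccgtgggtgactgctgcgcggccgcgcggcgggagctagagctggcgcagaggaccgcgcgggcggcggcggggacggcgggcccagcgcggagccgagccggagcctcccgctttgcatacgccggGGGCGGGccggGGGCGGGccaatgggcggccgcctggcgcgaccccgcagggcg
Hoxd13, chr2:74667975-74668224, plus strand: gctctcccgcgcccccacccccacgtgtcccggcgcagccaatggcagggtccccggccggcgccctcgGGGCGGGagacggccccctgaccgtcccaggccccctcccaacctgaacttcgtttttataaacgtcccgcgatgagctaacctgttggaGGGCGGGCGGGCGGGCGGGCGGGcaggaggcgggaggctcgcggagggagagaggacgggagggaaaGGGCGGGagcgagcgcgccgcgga
Hoxa13 holds 3 matches at a GC content of 80.0% and was open in both mice. Hoxd13 holds 7 overlapping or separate matches at a GC content of 74.4% and had no peak in the shorter list of either mouse. The RefSeq table held 24 promoters of 22 Hox genes, and 7 of the 24 had the motif, against 23.4% of all 32851 promoters in it.

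The Hoxa cluster had the strongest Hox promoters. Signal below is the height the authors deposited with each peak, whose scale is not named in the sources used here. Hoxa4, a group 4 gene of the neck region, had a signal of 2.97 in mouse 1 and 8.66 in mouse 2 at chr6:52191881-52192120, 128 bp upstream of its start. It was the highest Hox promoter in both mice. Even so, 31.6% of all open promoters in mouse 1 and 38.0% in mouse 2 had a lower signal than Hoxa4.

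Hoxa7 opened at separate start sites. The peak over the start inside the annotated gene, at chr6:52217465-52217680, had signals of 1.34 in mouse 1 and 4.84 in mouse 2. The peak over the most upstream start, at chr6:52221674-52221985, had 1.16 in mouse 1 and 4.32 in mouse 2 and holds a CTCF match. The 2 sites thus had similar heights within each mouse, and both were higher in mouse 2.

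Hoxa10, a posterior gene of the limb, uterus and blood, had signals of 0.913 and 3.68 at a site 155 bp from the nearest of its starts. Hoxa13, which patterns the digits and the hindgut, had 0.906 in mouse 1 and 2.78 in mouse 2 over its start. In mouse 2 Hoxa10 stood above Hoxa13, while in mouse 1 the 2 were nearly equal.

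Hoxb4 and Hoxb5 were the open genes of the Hoxb cluster. Hoxb4, a factor of the hindbrain border that is known to expand blood stem cells when overproduced, had signals of 1.37 in mouse 1 and 1.88 in mouse 2, 274 bp downstream of its start and in its exon. In mouse 1 that signal was above the one at the upstream Hoxa7 start, while in mouse 2 it was below it. Hoxb5, a group 5 gene, had 0.664 in mouse 1 and 1.94 in mouse 2, at a peak over its start in mouse 2 and 28 bp from it in mouse 1.

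The Hoxc cluster had weaker promoters. Hoxc10, a gene of the lumbar region, had signals of 0.593 in mouse 1 and 1.53 in mouse 2, 116 bp upstream of its start. Hoxc5 counted as open through the same peak, because a long Hoxc5 transcript starts near Hoxc10. At the start of Hoxc5 further into the cluster, chr15:103013815, there was no shorter-list peak in either mouse and a longer-list signal of 0.438 in mouse 2. Hoxc13, known for its role in hair and nails, had 0.332 in mouse 1 and 0.524 in mouse 2, lower than all but 0.545% and 0.520% of open promoters.

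The 10 open Hox promoters had a median signal of 0.909 in mouse 1 and 2.36 in mouse 2, against 4.98 and 12.2 over all open promoters. The median of the means of both mice was 1.73 for Hox genes and 8.69 for all genes. Each of the 10 stood in the lower part of the open promoters of its library, with at most 38.0% below it.

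**Figure D2:**
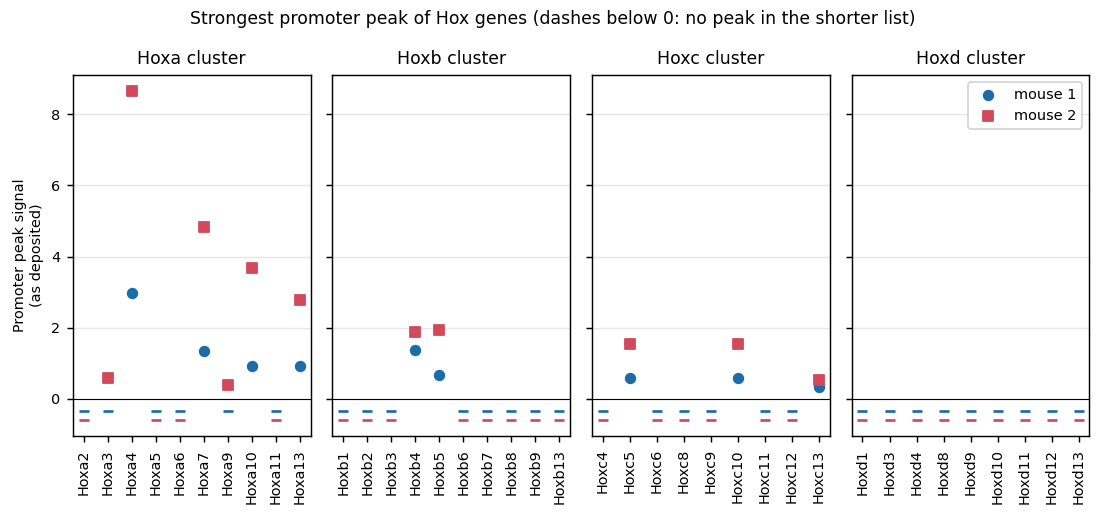
Signal of the strongest promoter peak of the Hox genes (vertical axis, as deposited), with circles for mouse 1 and squares for mouse 2, by cluster and in order of paralogue group. Dashes below 0 mark genes with no shorter-list peak. Hoxa4 is highest at 2.97 and 8.66, and no Hoxd gene has a point.

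A further pair of genes was open in mouse 2 alone. Hoxa3, needed for the thymus, had a signal of 0.579 over its distal start in mouse 2 and no run of significant cutting at any start in mouse 1. Hoxa9, a posterior gene of blood progenitors, had 0.383 in mouse 2, 292 bp from a start inside the gene, and none in mouse 1. Both lie in a stretch that differed between the mice and is described below.

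The longer lists added weaker sites. Hoxd1 was listed in both mice, with 0.262 in mouse 1 and 0.413 in mouse 2. In mouse 2 alone the longer list had Hoxd8 at 0.922, Hoxa11 at 0.872, Hoxb9 at 0.474, Hoxc9 at 0.428 and Hoxd13 at 0.353. Hoxc6 had a short run of significant cutting at the edge of its promoter in mouse 2 and no peak there, since the nearest peak began 1014 bp from its start, just past the 1000 bp used.

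The remaining 20 genes had neither a peak nor a run of significant cutting at any start in either mouse. They were Hoxa2, Hoxa5 and Hoxa6, then Hoxb1, Hoxb2, Hoxb3, Hoxb6, Hoxb7, Hoxb8 and Hoxb13, then Hoxc4, Hoxc8, Hoxc11 and Hoxc12, and Hoxd3, Hoxd4, Hoxd9, Hoxd10, Hoxd11 and Hoxd12. No Hoxd gene was open by the shorter lists in either mouse. Counted over start sites, 16 of 83 distinct Hox starts had a peak in both mice and 49 had no significant cutting in either.

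Some closed genes lay in long uncut stretches. In the Hoxb window 54.0 kb held the start of Hoxb1, a hindbrain gene. In the Hoxc window 44.3 kb held the starts of Hoxc11 and Hoxc12, and 46.4 kb held that of Hoxc4. A stretch of 32.1 kb in the Hoxa window held the start of Hoxa2. In the Hoxd window a stretch of 52.2 kb began by the start of Hoxd1, which the longer lists had in both mice. In none of these was a base listed as significantly cut in either mouse. They are among the longest uncut stretches of their windows, and stretches elsewhere in the genome were not measured. The genome had 2.32 peaks per 100 kb in mouse 1 and 2.85 in mouse 2. Whether such lengths are unusual was not tested.

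Over the 4 windows with their flanks, 891.8 kb in all, mouse 1 had 22 peaks and mouse 2 had 49, a mean of 35.5 ± 19.1 (SD, n = 2 mice). That was 2.47 peaks per 100 kb in mouse 1 and 5.49 in mouse 2, against 2.32 and 2.85 over the genome. The Hoxa window held 10 and 26 of them, Hoxb 7 and 12, Hoxc 3 and 4, and Hoxd 2 and 7. Peak density in the windows was thus near that of the genome in mouse 1 and above it in mouse 2, where the Hoxa window held more than the other windows together.

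Significantly cut bases made up 1.13% of the windows in mouse 1 and 2.62% in mouse 2, against 1.36% and 1.56% of the genome. Runs of such bases numbered 79 and 153. Footprints, the short gaps in cutting that a bound protein can leave, numbered 100 in mouse 1 and 196 in mouse 2. Per kb of cut sequence they were 9.93 and 8.40, against 8.45 and 8.70 over the genome, so footprints were about as dense in the Hox windows as elsewhere.

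The peaks of mouse 1 were nearly all found again in mouse 2. Of the 22 in mouse 1, 21 overlapped a peak of mouse 2, or 95.5%, while 42.9% of the 49 in mouse 2 overlapped one of mouse 1. Over the genome those shares were 80.8% and 66.1%. The overlapping peaks formed 49 separate sites, of which 21 were open in both mice, 27 in mouse 2 alone and 1 in mouse 1 alone. The site of mouse 1 alone, chr6:52110901-52110996, had a signal of 0.498 and lay in the flank, in Halr1.

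**Figure D3:**
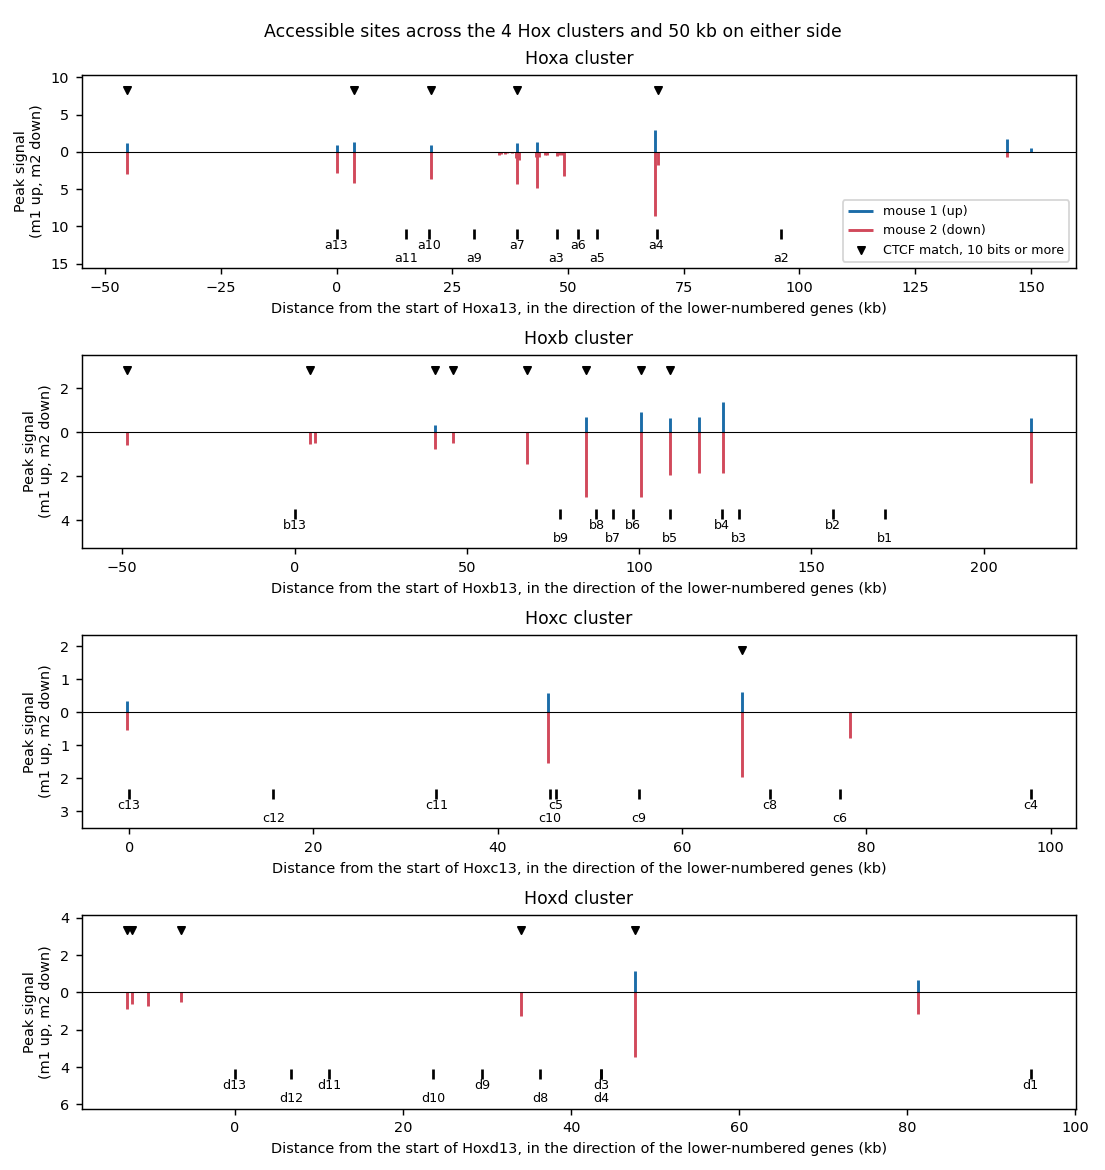
Accessible sites, apart from those of a gene not reported here, across the 4 Hox clusters and 50 kb on either side. The horizontal axis is the distance in kb from the start of the group 13 gene towards the lower-numbered genes, bars up are signals in mouse 1 and bars down in mouse 2, each panel on its own scale, black ticks mark gene starts by number and triangles mark CTCF matches of 10 bits or more. The Hoxd panel has 2 upward bars and neither stands at a Hoxd start.

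Shared sites also lay away from Hox starts, some of them among the highest of their windows. Over all peaks of the genome the median signal was 1.23 in mouse 1 and 1.45 in mouse 2. In the Hoxa window the site between Hoxa11 and Hoxa13, chr6:52257041-52257240, had signals of 1.33 in mouse 1 and 4.20 in mouse 2 and lies in an exon of the noncoding gene 9530018H14Rik, 3562 bp from the start of Hoxa13. After the Hoxa4 and inner Hoxa7 sites it was the highest of that window by the mean of the mice. A flanking site beyond Hoxa13, chr6:52305921-52306240, had 1.14 and 3.02.

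In the Hoxb window the site in an intron of Hoxb6, 2125 bp from its start, chr11:96294601-96294820, was highest by the mean of the mice, with 0.919 in mouse 1 and 2.93 in mouse 2. Next came the site between Hoxb9 and Hoxb8, chr11:96278901-96279060, with 0.702 and 2.93. Hoxb8 and Hoxb6 themselves were closed in both mice. Hoxb4, described above, came next by the mean and was the highest of the window in mouse 1.

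In the Hoxc window the highest site, chr15:102987541-102987751 between Hoxc9 and Hoxc8, had 0.613 in mouse 1 and 1.96 in mouse 2, above the Hoxc10 and Hoxc13 promoters. The Hoxd window had only 2 shared sites. One, chr2:74715821-74716080, lay in an exon of the antisense RNA gene Hoxd3os1, within 1000 bp of its start, with 1.15 and 3.46, and the other, chr2:74749381-74749720, lay in the noncoding gene Haglr with 0.689 and 1.18.

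The strongest site of each window that only 1 mouse listed was in each window one of mouse 2. In the Hoxa window it was chr6:52211621-52211840, with a signal of 3.23, where the longer list of mouse 1 had 0.823. In the Hoxb window it was chr11:96261661-96261820 at Gm53, with 1.47, against 0.377 in the longer list of mouse 1. In the Hoxd window it was chr2:74702325-74702458, 2157 bp from Hoxd8, with 1.27, and in the Hoxc window chr15:102999271-102999471 near Hoxc6, with 0.786. Mouse 1 had no significantly cut base at the sites near Hoxd8 and Hoxc6, whereas it had cutting short of the shorter list's limit at the other two.

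Other genes of the windows were read by the same rule. 9530018H14Rik, Gm27280, Hoxd3os1 and Haglr had a promoter peak in both mice, and all of these peaks are sites already described. Hotair, the noncoding RNA gene of the Hoxc cluster, and the antisense genes Hoxaas2, Hoxaas3, Hoxb3os and Hoxb5os had neither a peak nor significant cutting at a start. The same held for the microRNA genes Mir196b, Mir196a-1, Mir10a, Mir196a-2 and Mir10b, while Mir615 had a longer-list peak in mouse 2. Gm53, Gm28308, Gm27605 and Gm27898 had shorter-list peaks in mouse 2 alone.

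CTCF matches stood at many of the sites that both mice opened. A weight matrix of 20 positions was built from sequences in peaks outside the Hox windows, each with a footprint of both mice over its centre. A match was a score of 10 bits or more on either strand. It was found in 10 of the 22 Hox window sites of mouse 1, or 45.5%, against 22.2% of the peaks outside the windows. In mouse 2 it was found in 19 of 48 sites, or 39.6%, against 27.7%. Away from Hox starts the shares were 58.3% of Hox window sites in mouse 1 and 53.6% in mouse 2. Among other peaks away from starts of any gene they were 28.3% and 35.3%. The rules differ, since these Hox window sites include some at starts of noncoding genes, such as 9530018H14Rik and Hoxd3os1. A Hox window site also joins the peaks of both mice and can be longer than a single peak. The matrix and its limit were set after the data had been seen, and no factor binding was measured. The strict CTCF core, given below, was in only 3 of the 49 Hox sites. It was in 9.67% of other peaks in mouse 1 and 12.4% in mouse 2.

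Of the 10 shared sites at a Hox start, 3 held a match, and of the 11 elsewhere 7 did. The best scores were 17.1 bits at Hoxa10, 16.4 bits between Hoxb9 and Hoxb8, 16.2 bits between Hoxb13 and Hoxb9, 15.4 bits at Hoxd3os1 and 15.2 bits at the upstream Hoxa7 start. The lowest score inside the limit was 10.3 bits, at the site beyond Hoxa13, and the highest outside it was 9.44 bits, at chr11:96407801-96408020. The shared sites at Hoxa4, the inner Hoxa7 start, Hoxa13, Hoxb4, Hoxc10 and Hoxc13 had no match of 10 bits. A site that mouse 2 alone listed, 113 bp from the Hoxa4 start, had one of 11.3 bits.

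Footprints lay over the matches. At 9 of the 10 shared sites with a match, the authors' footprints covered the centre of the matched bases in both mice. They were 12 to 32 bp long in mouse 1 and 24 to 49 bp in mouse 2, against medians of 10 and 11 bp over all footprints of those libraries. The exception was the site between Hoxb13 and Hoxb9, where only mouse 2 had one. Of all 19 sites with a match, 18 had a footprint of mouse 2 over its centre. The matrix itself was built from footprinted sequences. The share and length of footprints at matches outside the windows were not computed. These counts and lengths therefore cannot be read as particular to Hox sites.

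The match between Hoxb9 and Hoxb8 is shown in its whole site, with the 20 matched bases in capitals, because its surroundings contain no annotated exon and its footprint was 13 bp in mouse 1 and 30 bp in mouse 2.
Hoxb9 to Hoxb8, chr11:96278901-96279060, plus strand: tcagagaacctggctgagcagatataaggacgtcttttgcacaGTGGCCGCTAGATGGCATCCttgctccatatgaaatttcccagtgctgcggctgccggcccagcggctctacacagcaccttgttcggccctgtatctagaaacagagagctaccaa
For comparison, the site near Hoxd8 that mouse 2 alone listed has a match of 16.2 bits and a footprint of 35 bp in that mouse.
Hoxd9 to Hoxd8, chr2:74702325-74702458, plus strand: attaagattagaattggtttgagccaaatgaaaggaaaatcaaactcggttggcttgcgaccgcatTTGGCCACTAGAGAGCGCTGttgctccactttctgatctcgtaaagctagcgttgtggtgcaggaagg

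**Figure D4:**
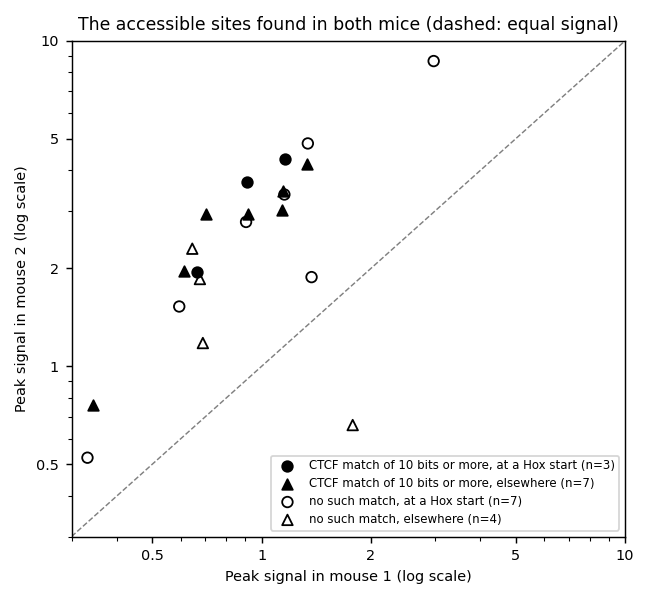
Signal of the 21 sites open in both mice, mouse 1 on the horizontal and mouse 2 on the vertical axis, both on log scales, with circles for sites at a Hox start, triangles for others and filled symbols for a CTCF match of 10 bits or more. All but 1 lie above the dashed line of equal signal.

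Among the other motifs searched on both strands, the CCAAT box of the factor NFY was found in 10 of the 21 shared sites. Over all 49 Hox sites it was in 15. It was in 21.6% of the peaks outside the windows in mouse 1 and 18.9% in mouse 2. Those peaks were taken whether or not the mice shared them. The short RUNX motif TGTGGT was found in 2 of the 21, against 19.2% and 16.2%. The ETS motif CCGGAAGT and the joint PBX and HOX motif TGATTNAT were found in none, against 2.64% and 2.14% for ETS and 1.00% and 0.817% for PBX and HOX. The homeodomain motif TAATTA was in none of the 21, against 1.25% and 1.01%, and the MEIS motif TGACAG in 4, against 16.9% and 14.7%. The E-box motif CACCTG was in 2 of the 21, against 26.6% and 25.1%. The SP and KLF motif was in 4, against 18.4% and 18.2%, and the GATA motif AGATAA in 1, against 6.12% and 4.53%. The NRF1 motif was in none, against 7.20% and 6.89%. YY1 and TCF/LEF motifs were in none either, against 4.52% and 3.93% for YY1 and 3.58% and 2.33% for TCF/LEF. A site here joins the peaks of both mice and can be longer than a single peak. The strict CTCF core, CCA, AG and GGC with 2 bases between each, was in 3 of the 21 shared sites and in no other Hox site. That is 3 of all 49 Hox sites, against 9.67% and 12.4% of other peaks.

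Mouse 2 was higher at most shared peaks of the genome, and the Hox sites shared that. The median signal over the 21 was 2.78 in mouse 2 and 0.913 in mouse 1, and the median log2 ratio of mouse 2 over mouse 1 was 1.55 (SD 0.76 over sites). It was 0.75 over 46865 other shared peaks, and 0.84 over 12560 of those whose GC content fell in the middle range of the Hox sites. In 20 of the 21, or 95.2%, the signal was higher in mouse 2, against 81.5% of the other shared peaks and 95.2% of those of similar GC content. The exception was chr6:52115981-52116221 in the flank of the Hoxa window, with 0.660 in mouse 2 and 1.78 in mouse 1. The part that library quality, depth or tissue makeup has in this shift was not tested.

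One stretch of the Hoxa cluster differed between the mice in extent as well as height. From chr6:52211621 to chr6:52225897, 14.3 kb that run from an intron of Hoxa3 over its distal start and Hoxa7 into Hoxa9, mouse 2 had 17 peaks and mouse 1 had 2. Significantly cut bases covered 44.4% of it in mouse 2 and 6.84% in mouse 1, and the longest run was 1392 bp in mouse 2 and 428 bp in mouse 1. Footprints numbered 34 in mouse 2 and 11 in mouse 1. The stretch was picked after its values were seen.

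Most of those peaks were low. Their signals in mouse 2 ran from 0.141 to 4.84 with a median of 0.463, and 13 of the 17 were below 1. Only 10.4% of all peaks of mouse 2 had a signal below that median, and the median over all its peaks was 1.45. Exons made up 43.3% of the stretch, 39.7% of its cut bases in mouse 2 and 30.9% of those in mouse 1. The 2 peaks of mouse 1 were the Hoxa7 start sites. Of the 17 peaks, 2 had no overlapping peak in the longer list of the same mouse. The start of Hoxa6, next to the stretch, stayed without significant cutting in both mice.

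**Figure D5:**
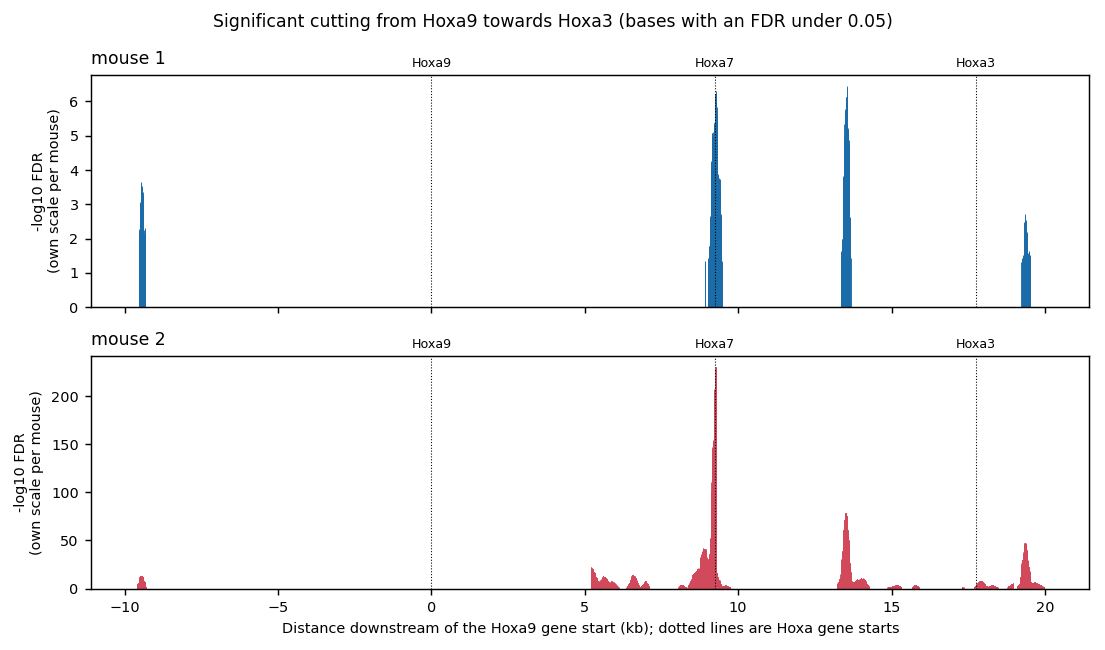
Significantly cut bases from upstream of Hoxa9 (left) to beyond Hoxa3 (right) in mouse 1 (top) and mouse 2 (bottom), as -log10 of the FDR with its own scale for each mouse, against the distance from the Hoxa9 start in kb. Dotted lines are gene starts. Mouse 2 has 28 runs of cut bases in the stretch and mouse 1 has 7.

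Genes that act with or on Hox genes, and a separate list of homeobox genes of blood cells, were open more often than Hox genes. Over all protein-coding genes 56.6% were open in both mice. The highest and lowest members of each list are by the mean of both mice, and their order can differ within a mouse. Of the TALE cofactors, homeodomain proteins that bind DNA together with Hox proteins, 7 of 9 had an open promoter in both mice, led by Pknox1 with 14.3 in mouse 1 and 42.8 in mouse 2 and Pbx4 with 15.8 and 25.1. The lowest were Meis1, a partner of Hoxa9 in progenitors, with 0.645 in mouse 2 alone, and Meis2, with 0.345 in mouse 1 alone. All 8 homeobox genes of blood cells were open in both mice. Their highest members were Pou2f1, with 12.5 and 30.01, and Satb1, the chromatin organiser of thymocytes, with 12.8 and 25.9, and their lowest were Zeb2, with 0.772 and 1.97, and Hhex, with 0.638 and 1.501.

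All 11 Polycomb repressive complex 2 genes, 12 Polycomb repressive complex 1 genes and 11 MLL-menin genes were open in both mice. In the first list Phf19 and Rbbp4 were highest by the mean of the mice, with 15.95 and 13.7 in mouse 1 and 36.7 and 34.7 in mouse 2. Jarid2, with 17.4, was above both in mouse 1. Rbbp7 and the methyltransferase gene Ezh1 were lowest, with 5.29 and 4.66 in mouse 1 and 16.97 and 13.04 in mouse 2. In the second Cbx8 led with 20.4 in mouse 1 and 44.7 in mouse 2, followed by Pcgf1 with 12.7 and 32.5, and Bmi1, with 1.40 and 3.39, and Pcgf2, with 0.657 and 1.82, were lowest. In the third Mllt1, with 13.5 and 45.3, and the methyltransferase gene Dot1l, with 11.2 and 38.5, led by the mean of the mice. Kat7, with 18.95, was above both in mouse 1. Ash2l, with 3.69 and 6.47, and Rbbp5, with 3.29 and 5.47, were lowest. In mouse 1 each of these genes except Phc1, at 2.81, Bmi1 and Pcgf2 was above Hoxa4, the highest Hox promoter. In mouse 2, where Hoxa4 had 8.66, the exceptions were Ash2l, Rbbp5, Bmi1 and Pcgf2.

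Homeobox genes of other patterning systems were open in both mice about as often as Hox genes, but more often than them in mouse 2. Of 28 such genes 7, or 25%, were open in both mice, against 25.6% of Hox genes. Counted in mouse 2 by itself, 15 of the 28 were open, against 12 of 39 Hox genes and 63.2% of all genes. Lhx2, with 2.25 in mouse 1 and 6.77 in mouse 2, was highest, and 13 members, Tlx1 and Tlx3 among them, were open in neither. None of the 8 ParaHox and Evx genes was open in either mouse.

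The tissue label was read against marker genes in the same way. Over all protein-coding genes 56.6% were open in both mice. The epithelial, mesenchymal and endothelial shares of 42.9%, 42.9% and 50% lay below that. All 8 thymocyte markers were open in both mice, from Cd8a with 12.7 and 20.7 and Lck with 11.6 and 18.7 down to Ptcra with 4.29 and 7.33 and Cd4 with 2.44 and 2.70, and their summed signal was 66.4 in mouse 1 and 90.3 in mouse 2. Of the thymic epithelial markers 3 of 7 were open, led by Ly75 with 6.59 and 19.4 and Prss16 with 1.75 and 3.75, with Foxn1 and Psmb11 in neither mouse and sums of 9.32 and 25.3. Of the mesenchymal markers 3 of 7 were open, led by Pdgfra with 1.05 and 4.05 and Col1a1 with 1.22 and 3.11, with Dcn, Lum, Col1a2 and Twist1 in neither mouse and sums of 2.88 and 8.96. Pecam1, with 5.44 and 3.12, and Kdr, with 0.415 and 1.62, were the 2 open endothelial markers of 4, and the sums were 5.86 and 4.74.

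Early progenitor markers were open in part. In both mice 2 of 6 were open, Kit with 2.87 in mouse 1 and 10.3 in mouse 2 and Mecom with 1.42 and 2.99, and in mouse 2 Lmo2, Flt3 and Meis1, which is also a TALE cofactor, were open too, at low signals of 0.695, 0.655 and 0.645, in a library where 63.2% of all genes were open, against 56.9% in mouse 1. Cd34 was open in neither. The summed signal of the list was 15.3 in mouse 2 and 4.29 in mouse 1. The sum was higher in mouse 2 for every list with a peak except the endothelial one, and the median over all open promoters was higher in mouse 2 too. The part of any of these cells in the Hox differences between the mice was not tested.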

How the data were processed

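The files were peak lists, cut-rate lists and footprint lists of each DNase-seq library, deposited by the authors in mm10 (GRCm38) coordinates, per the labels. The labels and files name no aligner, caller or threshold and do not say how reads from the CAST allele were treated. Each library has a shorter and a longer peak list, called on that library alone; they were told apart by length, since how they differ in stringency is not documented. The authors' deposited signal per peak came in whole multiples of 1 step, 0.00638 in mouse 1 and 0.00504 in mouse 2 (100% of low values within 0.1 steps). Read totals are not given, so no interval or floor was computed. For cut rates the authors deposited an FDR, a p-value adjusted for many tests, for bases below 0.05 only. Footprints carry the authors' constant score of 0.01, and only their positions were used.

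Touching runs of cut bases were merged. Start sites came from GENCODE M21 and sequence from GRCm38. Peaks overlapping by at least 1 bp were counted as shared. Python 3.11.15 with pandas 2.3.3 and pysam 0.24.0 was used. The CTCF matrix came from 8247 words outside the Hox windows, each with a footprint of both mice over its centre. Overlap counts and motif searches were tested on simulated data. The members, gene lists and tests were chosen with earlier results of these data known. Named genes are all Hox genes, the 3 highest shared sites and highest unshared site of each window, window genes that were open or lay between Hox genes, and the 2 highest and 2 lowest of each list. With 1 group of 2 mice no p-value was computed, and both mice are given as they are. Of the genes that rule names, 2 and what shares a start with them are not reported here, though they entered the counts.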

Additional observations from a re-analysis of the deposited data

How the results depend on the processing

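With the stronger 50% of peaks the Hox genes open in both mice numbered 3, against 10, the window peaks averaged 12.5, against 35.5, and the median promoter signal was 3.09, against 1.73. With the longer lists the window peaks averaged 57.5. A flank of 100 kb gave a mean over the mice of 227 footprints, against 148, and merging runs within 20 bp gave a mean of 65 runs, against 116. Written backwards, the CTCF core had 0 matches touched by a footprint, against 3, and the weight matrix, chosen after seeing the data, gave 9. In each of these the cause was not tested beyond what the setting itself removes or adds. Leaving out 1 mouse gave 10 to 12 open Hox genes, 22 to 49 window peaks, 100 to 196 footprints, 79 to 153 runs, 3 to 4 core matches and a median promoter signal of 0.909 to 1.91. The other settings, promoter widths of 500 and 2500 bp among them, left each count within 1.5 times its main value. They left the signal within 1 SD of the mice. The share of window peaks found in both mice averaged 69.2% in the main setting, with an SD of 37.2 points. That SD cannot judge how stable the share is, since both mice's shares set the same overlaps against different numbers of peaks. The share was lowest with the stronger 50% of peaks. Matrix limits of 8 and 12 bits gave 11 and 9 shared sites, and without the Hoxa stretch the window peaks averaged 26 over the mice, against 35.5. No paired analysis was possible because there is 1 group and the numbers only name the mice. With 2 mice the SD has 1 degree of freedom.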
